A study of Mus musculus with 4 samples.

Results

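The genes of epithelial cell junctions were examined in the lungs of mice that over-express the cytokine IL-33 from a transgene and of control mice. The set comprised 51 genes of the 43346 in the deposited table, taken by name: the numbered claudins (25), zonula occludens genes such as Tjp1 and Tjp3, cingulin (Cgn), occludin (Ocln), Marveld2, Marveld3, F11r, Crb3, Epcam, E-cadherin (Cdh1), the desmogleins and desmocollins, the plakophilins, plakoglobin (Jup) and desmoplakin (Dsp). The rule reads gene names alone. Polyadenylated RNA was sequenced from 2 IL-33 transgenic libraries, B and E, and 2 control libraries, D and F. The labels call the material lung epithelial cells and the series title calls it lung tissue. The promoter of the transgene, the strain, age and sex of the mice and the number of mice per library are details not given in the sources used here. Any p-value therefore measures the spread between these libraries, which may be technical.

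Tight junctions seal the space between neighbouring epithelial or endothelial cells near their apical side. Claudins form the paired strands that set which ions pass, occludin and the MARVEL proteins accompany them, and the zonula occludens proteins and cingulin tie the strands to actin. Below them, E-cadherin holds the adherens junction, and desmosomes link the keratin filaments of adjoining cells through desmosomal cadherins, plakoglobin, plakophilins and desmoplakin. In the lung, claudin-18 is typical of the alveolar epithelium, claudins of the Cldn3, Cldn4 and Cldn7 genes occur in alveolar type 2 and airway cells, and claudin-5 is best known as the claudin of endothelium.

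No junction gene was called different between transgenic and control libraries. With 2 libraries a group, a gene that was not called may still differ. Of the 51 genes, 35 passed the filter on low counts, and at an adjusted p of 0.05 the test called 0 in the higher and 0 in the lower direction (edgeR's quasi-likelihood test, adjusted over all 20872 genes tested, of which 0% were higher and 0% lower). At an unadjusted p under 0.05 there were 0 junction genes, where 1.29% of all genes tested reached it. The smallest p among them was 0.142, that of Dsc2. For 1 junction gene both transgenic libraries exceeded both controls, Dsc2 (background 11.9% of genes), and for 2 they lay below both, among them Cldn11 (background 12%). Log2 fold changes ran from -0.43 (Cldn11) to 0.51 (Dsc2), with a median of 0.09 beside a median of -0.00128 over all genes tested. Above 0 were 24 of the 35, beside 49.6% of all genes tested.

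Sequencing was deep, and the libraries differed in their makeup. Gene counts summed to between 76120696 and 87723745 per library. Levels are given as CPM, the count of a gene scaled to a common library size. Il33 stood at 1723 (B) and 874 (E) CPM against 117 (D) and 108 (F) CPM. Markers of the epithelium were abundant, with the surfactant gene Sftpc of alveolar type 2 cells at 2.0% to 3.61% of counts. The endothelial gene Cdh5 (1115 to 1916 CPM), the fibroblast gene Col1a1 (181 to 533 CPM) and the leukocyte gene Ptprc (8.21 to 30.04 CPM) were also present, so the libraries did not hold epithelial RNA alone. The Y-linked share of RNA, set to 100% in D, was 47.5% in F, 9.0% in E and 0.554% in B. The X-linked RNA Xist was at 698 CPM (B) and 811 (E) against 1.19 (D) and 356 (F). E and F thus held both Xist and Y-linked RNA, and the cause was not tested. The Y-linked share was lower and Xist higher in both transgenic libraries, so sex and genotype cannot be told apart.

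The highest claudins per length were Cldn5, Cldn18 and Cldn3. In CPM without the length, Cldn18 (760 on average) stood above Cldn5 (630). Averaged over the 4 libraries and divided by the length column of the table, Cldn5 stood at 446 CPM per kilobase, Cldn18 at 171 and Cldn3 at 150, followed by Cldn7 at 41.9 and Cldn4 at 23.3. Of the summed claudin level per kilobase, Cldn5 took 34.7% (B), 57.2% (E), 48.6% (D) and 60.4% (F). Without Cldn5, the share of Cldn18 was 39.2% (B), 36.8% (E), 42.7% (D) and 34.7% (F), and that of Cldn3 was 33.8%, 35.3%, 31.8% and 36.4% in the same order. Cldn18 thus led in B, E and D and Cldn3 in F, and the shares of both overlapped between the groups.

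The sequences around the starts of these leading claudins, and of Cldn4, the close neighbour of Cldn3, are shown because their counts carry the account that follows. They come from RefSeq (GRCm38.p6), which gave 45 start windows for 32 of the 51 genes, each running from 250 bases before to 50 bases after a start. Cldn18 has 2 starts 7204 bases apart. The upstream one belongs to the transcripts Cldn18-202 and Cldn18-203 and the downstream one to Cldn18-201 in GENCODE M21. As background, the upstream first exon is the one used in lung and the downstream one that used in stomach, but the table holds 1 count per gene and does not separate them. The strands are read 5′ to 3′ along the gene. Capitals mark a match on either strand to CACCTG (reverse CAGGTG), the E-box bound by the repressors Snail and Zeb, or to AACCNGTT (reverse AACNGGTT), the motif of grainyhead-like factors. No other motif was matched in these 5 windows among those searched, which also included CTCAAG (reverse CTTGAG), a core of NKX2-1 sites, and TATAAA (reverse TTTATA), the TATA box.
Cldn18, upstream start (chr9:99717218-99717517, minus strand): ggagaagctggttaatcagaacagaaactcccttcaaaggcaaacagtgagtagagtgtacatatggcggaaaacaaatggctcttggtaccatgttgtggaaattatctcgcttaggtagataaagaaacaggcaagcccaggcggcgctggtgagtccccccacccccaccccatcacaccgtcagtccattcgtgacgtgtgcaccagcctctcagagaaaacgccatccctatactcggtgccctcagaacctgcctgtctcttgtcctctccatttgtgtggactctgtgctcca
Cldn18, downstream start (chr9:99710014-99710313, minus strand): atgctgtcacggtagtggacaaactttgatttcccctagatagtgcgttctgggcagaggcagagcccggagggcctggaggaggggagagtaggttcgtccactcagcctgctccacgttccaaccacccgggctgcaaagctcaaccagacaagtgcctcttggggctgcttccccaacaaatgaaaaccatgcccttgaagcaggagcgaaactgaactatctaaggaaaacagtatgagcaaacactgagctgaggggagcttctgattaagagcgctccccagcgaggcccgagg
Cldn3 (chr5:134985964-134986263, plus strand): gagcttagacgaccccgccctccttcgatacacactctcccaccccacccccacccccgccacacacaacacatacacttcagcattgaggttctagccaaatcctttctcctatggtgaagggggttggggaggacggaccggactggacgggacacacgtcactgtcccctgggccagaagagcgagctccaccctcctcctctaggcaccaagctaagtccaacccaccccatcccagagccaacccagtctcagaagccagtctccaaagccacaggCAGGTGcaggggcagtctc
Cldn4 (chr5:134946885-134947184, minus strand): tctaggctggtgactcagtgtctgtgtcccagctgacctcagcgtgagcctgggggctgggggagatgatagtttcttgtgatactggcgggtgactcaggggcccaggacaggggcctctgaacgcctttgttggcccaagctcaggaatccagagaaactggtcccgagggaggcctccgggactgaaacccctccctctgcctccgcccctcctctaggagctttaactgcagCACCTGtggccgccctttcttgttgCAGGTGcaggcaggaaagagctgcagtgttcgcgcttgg
Cldn5 (chr16:18776597-18776896, plus strand): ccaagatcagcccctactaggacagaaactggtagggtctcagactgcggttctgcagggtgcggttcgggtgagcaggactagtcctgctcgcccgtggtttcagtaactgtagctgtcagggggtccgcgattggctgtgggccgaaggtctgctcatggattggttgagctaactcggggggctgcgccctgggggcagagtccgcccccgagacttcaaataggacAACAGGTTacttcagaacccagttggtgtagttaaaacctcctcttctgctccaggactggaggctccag

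A match is only a run of letters. CACCTG or its reverse was found in 17 of the 45 junction windows (37.8%) and in 20.2% of all 32851 windows. For AACCNGTT the shares were 2 of 45 (4.44%) and 2.09%, for CTCAAG 9 of 45 (20%) and 15.9%, and for TATAAA 3 of 45 (6.67%) and 13.6%. Several genes contribute more than 1 window to these counts, and the windows of 1 gene can overlap.

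Among the claudins, 17 of 25 were tested, with a median log2 fold change of 0.06 and 10 above 0. Cldn18 (ENSMUSG00000032473, chromosome 9, 99689461 to 99717267, minus strand, GRCm38), whose product seals the alveolar epithelium, stood at 968 CPM (B) and 583 (E) against 938 (D) and 554 (F). Each control lay close to 1 of the transgenic libraries, and the spread within a group exceeded the difference between groups (775 ± 272 CPM in transgenic and 746 ± 272 in control libraries, SD, n = 2 each). The log2 fold change was 0.06 (SE 0.36). Cldn3 was at 236 CPM (B), 158 (E), 197 (D) and 164 (F) (log2 fold change 0.12, SE 0.22). Its neighbour Cldn4 lies 39279 bases away on chromosome 5, in the opposite orientation, and was at 59.2 CPM (B), 31.4 (E), 43.7 (D) and 34.5 (F) (0.21, SE 0.32). Both genes, which encode barrier-forming claudins, were ordered B, D, F, E from high to low. That order was held by 9 of the 26 junction genes that averaged at least 10 CPM. The ratio of Cldn3 to Cldn4 in CPM was 3.98 (B), 5.03 (E), 4.51 (D) and 4.75 (F). The third member of that neighbourhood, Cldn13, had 0 counts in every library.

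Cldn7 and Cldn10 followed the same libraries. Cldn7 was at 104 CPM (B), 64.6 (E), 91.3 (D) and 67.2 (F) (log2 fold change 0.09, SE 0.27). Cldn10, a channel-forming claudin of secretory epithelia, was at 43.2 CPM (B), 19.4 (E), 30.6 (D) and 17.9 (F). Its span from lowest to highest library, 2.41-fold, was the widest of the 26 junction genes that averaged at least 10 CPM, and its log2 fold change was 0.37 (SE 0.44). Other claudins above that level varied less: Cldn12 was at 31.5, 26.4, 28.3 and 26.4 CPM and Cldn8 at 25.4, 20.9, 18.8 and 22.5 CPM in B, E, D and F. The row named Cldn25 in the table carries the symbol Cldnd1 (claudin domain containing) in GENCODE M21. It was nearly flat, at 47.7 CPM (B), 49.7 (E), 48.4 (D) and 50.3 (F).

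Cldn5 ran against the other abundant claudins. The gene (chromosome 16, 18776847 to 18778260, plus strand) stood at 416 CPM (B) and 671 (E) against 659 (D) and 774 (F). B lay well below the rest, while E lay between the controls. The groups averaged 544 ± 181 CPM in transgenic and 716 ± 81 in control libraries (SD, n = 2 each), a log2 fold change of -0.40 (SE 0.26, adjusted p = 1 in edgeR's quasi-likelihood test). Without library B the log2 fold change was -0.09 (SE 0.20), and without library E it was -0.79 (SE 0.19, adjusted p = 0.346).

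Endothelial markers moved with Cldn5 across the libraries. All 12 endothelial genes on the marker list were lowest in B and highest in F, and their summed level was 4989 CPM (B), 7675 (E), 6382 (D) and 8355 (F). Their median log2 fold change was -0.24, with 0 of 12 above 0. Fewer endothelial cells and less RNA per cell cannot be told apart in such bulk libraries. Within a library, the ratio of Cldn5 to Cdh5, the endothelial cadherin gene, was 0.373 (B) and 0.363 (E) against 0.488 (D) and 0.404 (F). The ratio to Pecam1 was 0.505 and 0.538 against 0.658 and 0.583. For 8 of the 12 endothelial genes the Cldn5 ratio in B and in E was under that in D and in F, and for 0 it was above. These ratios share 1 numerator and are not independent. They restate that Cldn5 had a log2 fold change of -0.40 beside the endothelial median of -0.24. The same count was not taken for other genes. With libraries scaled to the endothelial list, the groups did not overlap for 20.3% of all genes tested. With all libraries scaled to the endothelial list, a choice made once the values were known, the log2 fold change of Cldn5 was -0.17 (SE 0.32, adjusted p = 0.89 in edgeR).

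**Figure D1:**
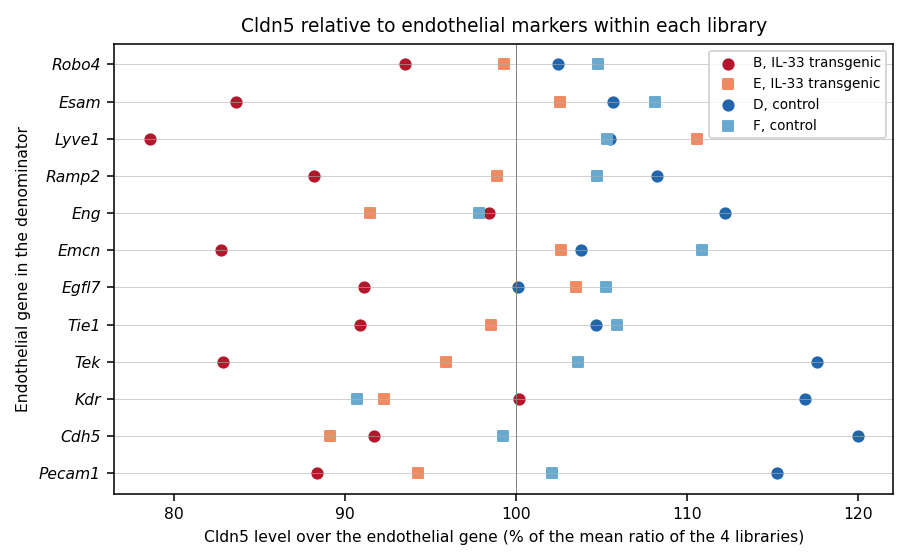
Ratio of Cldn5 to each of 12 endothelial genes (rows) in each library, on a linear axis as a percentage of the mean ratio of the 4 libraries. Circles are B and D, squares E and F, transgenic libraries in red and orange and controls in dark and light blue. In 8 of 12 rows both transgenic points lie left of both control points, and Kdr, Egfl7, Eng and Lyve1 are the rows where they overlap. All rows share the numerator Cldn5 and are not independent, and the same count was not taken for other genes.

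The remaining claudins were scarce. Tested below 10 CPM were Cldn6, Cldn23, Cldn15, Cldn1, Cldn2, Cldn11, Cldn19 and Cldn22, the averages of which ran from 0.329 CPM (Cldn22) to 4.03 CPM (Cldn6). Cldn11, known from myelin and from Sertoli cells of the testis, was one of the genes whose groups did not overlap. It stood at 0.821 CPM (B) and 0.903 (E) against 1.25 (D) and 1.07 (F) (log2 fold change -0.43, SE 0.26). Cldn1 was at 1.11 CPM (B), 2.7 (E), 1.56 (D) and 2.11 (F), with no separation of the groups. Cldn22 lies inside Wwc2 on the opposite strand, a gene with 59637 counts in all against 110 for Cldn22, and the strand setting of the counting was not stated in the sources. Of the untested claudins, Cldn13 and Cldn16 had 0 counts, while Cldn9, Cldn14, Cldn17, Cldn20, Cldn24 and the row named Cldn26 (Tmem114 in GENCODE M21) had between 2 and 33 counts over the 4 libraries.

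**Figure D2:**
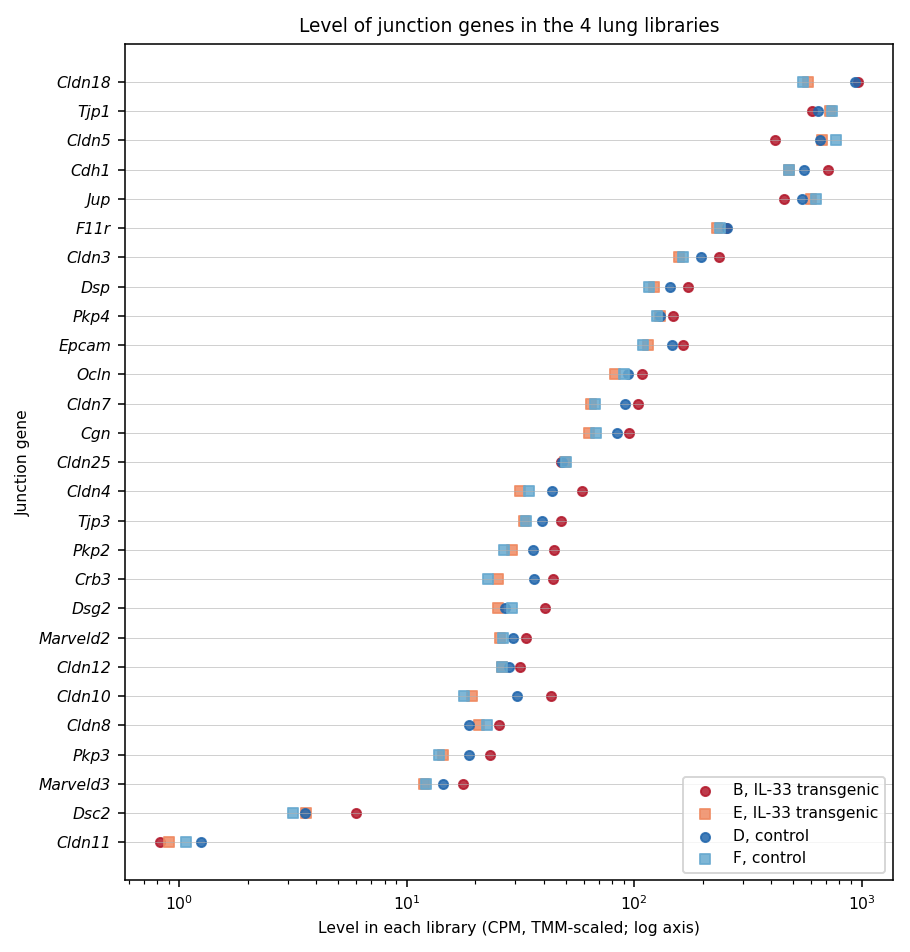
Level of junction genes that averaged at least 10 CPM, and of Dsc2 and Cldn11, in each library, as CPM on a log axis. Circles are B and D, squares E and F, transgenic libraries in red and orange and controls in dark and light blue. For most genes the red circle of B lies rightmost, the blue circle of D next, and the squares of E and F lie together. For Cldn5, Tjp1, Jup, Cldn25 and Cldn11 the circle of B lies leftmost.

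The other membrane proteins of the tight junction were nearly level between the groups. Of the 6, 5 had log2 fold changes above 0, and these ran from -0.03 (F11r) to 0.23 (Crb3). Ocln, encoding occludin, was at 108 CPM (B), 82.8 (E), 94.4 (D) and 90.3 (F) (log2 fold change 0.05, SE 0.15). Marveld2, encoding tricellulin of the corners where cells meet, lies 43238 bases from Ocln on chromosome 13. It was at 33.5, 25.8, 29.2 and 26.4 CPM in B, E, D and F. Ocln and Marveld2 shared the order B, D, F, E, as did 9 of the 26 junction genes that averaged at least 10 CPM. Marveld3 was at 17.7, 12, 14.4 and 12.1 CPM in the same libraries (0.16, SE 0.23). F11r, encoding the adhesion molecule JAM-A, differed least between libraries among these, at 253 CPM (B), 232 (E), 256 (D) and 239 (F). It is made by endothelial cells and leukocytes as well as epithelium. Leukocyte markers were above 0 in log2 fold change for 9 of 10 genes (median 0.75). Of the 10, 5 were higher in both transgenic libraries (background 11.9% of genes) and 0 lower (background 12%). At an unadjusted p under 0.05 there were 2, Ptprc and S100a8 (background 1.29%). Ptprc was at 20.6 (B) and 30.04 (E) CPM against 8.21 (D) and 16.5 (F). The summed level of the list, 815 and 801 CPM in the transgenic and 849 and 725 CPM in the control libraries, is mostly that of Lyz2 (670 to 801 CPM). The part of leukocytes in the F11r value was not tested.

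Crb3 and Epcam had wider spans. Crb3, a subunit of the apical polarity complex, was at 43.9 CPM (B), 25.2 (E), 36.2 (D) and 22.8 (F) (log2 fold change 0.23, SE 0.34). It overlaps Slc25a23 and Dennd1c on the opposite strand, which may share its reads. Epcam, the epithelial adhesion gene often used to sort these cells, was at 164 CPM (B), 115 (E), 148 (D) and 110 (F) (0.11, SE 0.23). Both were high in B and D and low in E and F, so that each group held 1 high and 1 low library.

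The scaffold genes divided. Tjp1, encoding ZO-1, was at 603 CPM (B), 725 (E), 644 (D) and 740 (F) (log2 fold change -0.06, SE 0.17), with B lowest. Tjp3, encoding ZO-3, which is restricted to epithelia, ran the other way, at 47.7 CPM (B), 32.9 (E), 39.5 (D) and 33.4 (F) (0.15, SE 0.21). It overlaps Apba3 on the opposite strand (7699 counts in all against 12554 for Tjp3), which may share its reads. The ratio of Tjp1 to Tjp3 in CPM was accordingly 12.6 (B), 22 (E), 16.3 (D) and 22.1 (F). Cgn, encoding cingulin, sided with Tjp3, at 94.9 CPM (B), 63.2 (E), 84.1 (D) and 67.7 (F) (0.06, SE 0.23).

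Cdh1 of the adherens junction was at 710 CPM (B), 481 (E), 561 (D) and 480 (F) (595 ± 162 against 521 ± 57.3 CPM, SD, n = 2 each). The log2 fold change was 0.19 (SE 0.23). E and F differed by less than 1 CPM while B stood above all others. The gene lies on chromosome 8, 106603351 to 106670246, plus strand.

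The desmosomal cadherin genes form 1 cluster on chromosome 18, from Dsc3 at 19960930 to the end of Dsg2 at 20604521, and 2 of the 9 were tested. Dsg2, the desmoglein of simple epithelia and heart, was at 40.6 CPM (B), 25.3 (E), 27.1 (D) and 29.2 (F) (log2 fold change 0.23, SE 0.24). Dsc2, the desmocollin of the same tissues, was at 6.01 CPM (B) and 3.61 (E) against 3.56 (D) and 3.17 (F). Its groups did not overlap, yet E exceeded D only slightly and B alone stood apart (4.81 ± 1.7 against 3.37 ± 0.277 CPM, SD, n = 2 each). The log2 fold change of 0.51 (SE 0.30, adjusted p = 1 in edgeR) became 0.10 without library B. The squamous members Dsg1a, Dsg1b, Dsg1c, Dsg3, Dsg4, Dsc1 and Dsc3 failed the filter, with between 0 and 38 counts over all libraries. For Dsg4, with 0 counts, a library still allows up to 3 counts by chance of counting.

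In the desmosomal plaque, 4 of 5 tested genes had log2 fold changes above 0. Dsp, which anchors keratin, was at 172 CPM (B), 123 (E), 144 (D) and 116 (F) (0.18, SE 0.21). Pkp2 was at 44.7 CPM (B), 29.2 (E), 35.9 (D) and 26.9 (F) (0.23, SE 0.25), and Pkp3 at 23.3, 14.5, 18.8 and 13.9 CPM (0.21, SE 0.28). Dsp, Pkp2 and Pkp3 shared the order B, D, E, F. Pkp4, a plakophilin relative also found at adherens junctions, was flatter, at 149, 130, 131 and 126 CPM in B, E, D and F (0.12, SE 0.11). Jup, encoding plakoglobin, which also binds cadherins of endothelial cells, was reversed in order, at 455 CPM (B), 600 (E), 545 (D) and 633 (F) (-0.16, SE 0.19). The ratio of Jup to Dsp in CPM was 2.64 (B), 4.89 (E), 3.78 (D) and 5.44 (F). Pkp1, the plakophilin of stratified epithelium, had 10 counts in all and was not tested.

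**Figure D3:**
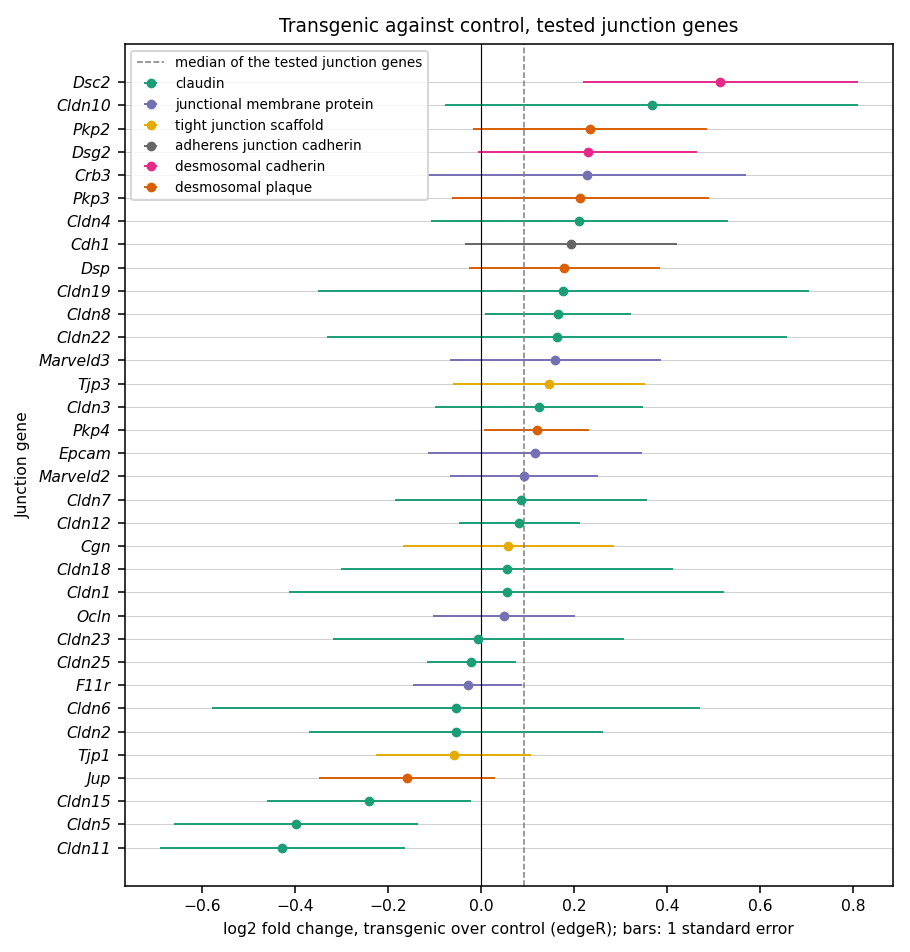
Log2 fold change of transgenic over control libraries for tested junction genes, sorted, with bars of 1 standard error from edgeR and colours for the kind of protein. The dashed line is the median of all 35 tested, 0.09. Values run from -0.43 for Cldn11 to 0.51 for Dsc2.

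Variation between libraries, rather than between groups, ran through the set. Of the 26 junction genes that averaged at least 10 CPM, 20 were highest in B, and 18 were ordered B, D and then E and F. B was lowest for 5. Over all 20872 genes tested, 7025 were highest and 7075 lowest in B, more than in any other library. The reverse order, F, E, D, B, was that of 4 genes, Cldn5, Tjp1, Jup and Cldn25. The ratio of E to F, a transgenic over a control library, had a median of 0.982 over these genes and ran from 0.868 (Cldn5) to 1.11 (Crb3). That of B to D had a median of 1.15 and ran from 0.631 (Cldn5) to 1.5 (Dsg2). The other pairs gave other values, with a median of 1.41 for B to F (0.538 for Cldn5 to 2.41 for Cldn10) and 0.854 for E to D (0.621 for Cldn18 to 1.13 for Tjp1). Cldn5 had the lowest ratio for B to D, B to F and E to F, but for E to D its ratio was 1.02, above the median.

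Some lists of epithelial markers outside the junction genes moved with this order, and others did not. The median of 17 pan-epithelial genes, such as Krt8 and Grhl2, relative to the mean of the 4 libraries was 129% (B), 85.1% (E), 105% (D) and 81.6% (F). That of the 26 junction genes was 123%, 86.0%, 103% and 87.2%. Alveolar type 2 markers gave 124%, 90.9%, 103% and 81.3%, and club cell markers 126%, 80.6%, 106% and 82.4%. Alveolar type 1 markers were highest in D (112%, 81.4%, 129% and 65.8% in B, E, D and F). Ciliated markers were higher in F than in D (120%, 82.8%, 84.9% and 104%). The scarce basal (101%, 99.1%, 103% and 95.4%) and neuroendocrine markers (106%, 92.3%, 95.6% and 108%) did not follow the order either. Mesothelial markers were highest in D (114%, 66.8%, 165% and 54.9%). Endothelial markers gave 74.1%, 109%, 98.8% and 118%, and fibroblast and smooth muscle markers 63.9%, 115%, 86.7% and 137%. The part of these cell types in the values above was not tested further than by scaling. With libraries scaled to the pan-epithelial list, the median log2 fold change of the junction genes was -0.08 while that of all genes was -0.16, 6 of 35 lay above 0, and 0 passed. Relative to the median of all genes, the junction genes lay 0.0819 higher with that scaling and 0.0935 higher with TMM, on the log2 scale. Such a scaling moves all genes by nearly the same amount. This distance could therefore hardly change, and it tests nothing about epithelial content.

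**Figure D4:**
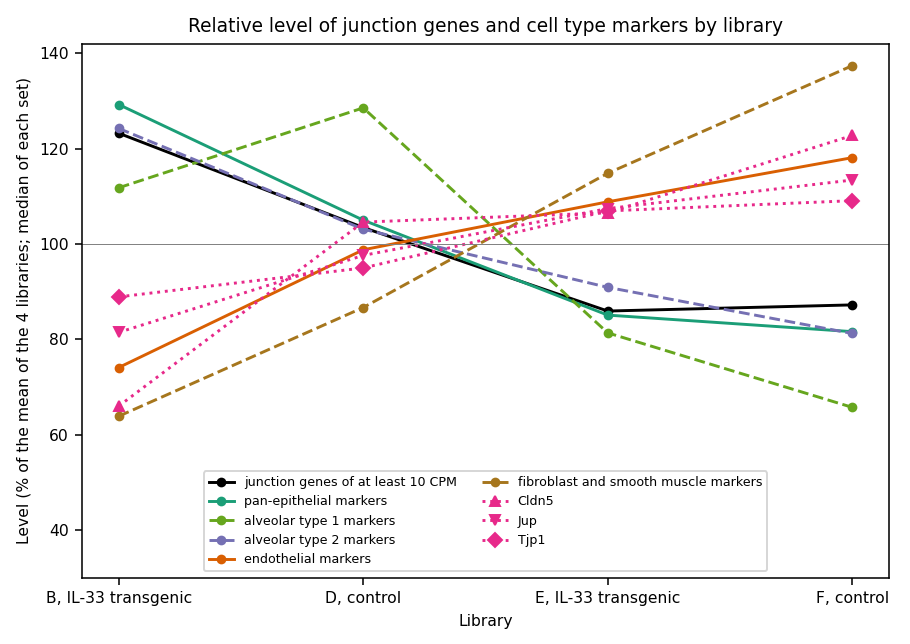
Relative level in each library (per cent of the mean of the 4 libraries) as the median of each gene set, with Cldn5, Jup and Tjp1 shown singly. Junction genes and pan-epithelial markers are highest in B (123% and 129%) and low in E and F, while Cldn5, Jup, Tjp1 and the endothelial markers (74.1% in B, 118% in F) are lowest in B and highest in F.

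Other genes of the junctions, on 5 lists that share no member with the set, also gave 0 calls. Of 24 scaffolds, adaptors and polarity genes, 14 had log2 fold changes above 0 (median 0.04). The smallest p-values there belonged to Magi3, a scaffold with a guanylate kinase domain (133 CPM (B), 102 (E), 102 (D) and 98.4 (F)), and to Ybx3, the ZO-1-associated Y-box factor (81.3, 93.7, 96.5 and 96.5 CPM). Of 14 other junctional membrane proteins, 7 were above 0 (median 0.02), led by Crb1 (0.927, 0.575, 0.496 and 0.411 CPM) and Ildr1 of tricellular junctions (18.5, 12.7, 13.1 and 12.5 CPM). Of the 24 scaffolds, adaptors and polarity genes, 3 were lower in both transgenic libraries (background 12% of genes), Ybx3 among them, and 1 higher (background 11.9%). Of the 14 membrane proteins, 0 were lower and 1 higher, Crb1. The groups overlapped for Magi3 and Ildr1.

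Of 16 adherens junction genes, 7 were above 0 (median -0.04). Those with the smallest p were Cdh13, encoding T-cadherin (14.8 CPM (B), 18.7 (E), 19.1 (D) and 25.1 (F)), and Cdh2, encoding N-cadherin (10.3, 14.3, 14.7 and 16.1 CPM). Of the 16, 3 lay lower in each transgenic library than in each control (background 12% of genes) and 0 higher (background 11.9%). The 3 were Cdh13, Cdh2 and Cdh11. Cdh11 was at 14.0 CPM (B), 30.1 (E), 32.3 (D) and 31.9 (F) (log2 fold change -0.54, SE 0.36). The catenin genes Ctnna1, Ctnnb1 and Ctnnd1 had log2 fold changes of -0.02, 0.06 and -0.06.

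Among 13 desmosome linkers and keratins, 7 were above 0 (median 0.10), and 1 had an unadjusted p under 0.05 (background 1.29% of genes). That was Krt5, the keratin of basal cells, at 0.185 CPM (B) and 0.305 (E) against 0.0248 (D) and 0.047 (F) (log2 fold change 2.72, SE 0.62, adjusted p = 1 in edgeR). It stayed below 1 CPM in every library. Next came Krt17, at 0.132, 0.124, 0.0869 and 0.0235 CPM. Of 19 junction regulators, 8 were above 0 (median -0.08) and 1 had an unadjusted p under 0.05 (background 1.29%). The zinc finger factor gene Klf4 was at 235 CPM (B) and 278 (E) against 331 (D) and 337 (F) (-0.38, SE 0.13, adjusted p = 1 in edgeR), and the kinase gene Rock1 at 210 and 183 against 163 and 177 CPM (0.20, SE 0.12).

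**Figure D5:**
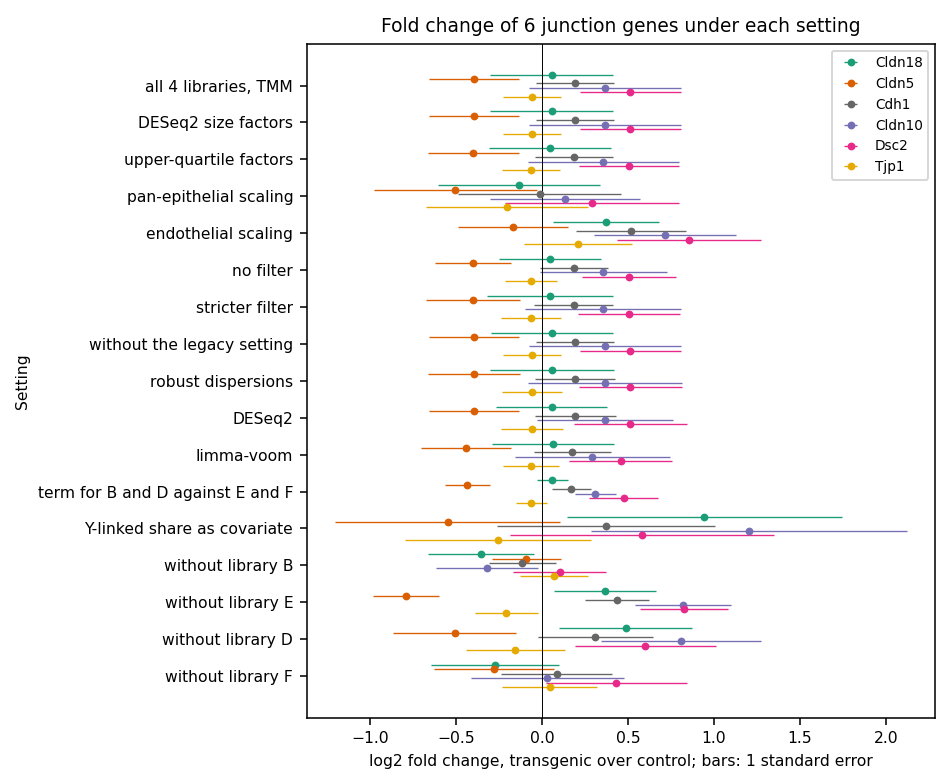
Log2 fold change of 6 junction genes (colours) under the main setting and each alternative (rows), with bars of 1 standard error. Cldn18, Cdh1 and Cldn10 lie below 0 without library B and above 0 without library E, Cldn5 stays below 0 in every row, and Dsc2 above 0 in every row.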

How the data were processed

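RNA of 2 IL-33 transgenic and 2 control libraries was sequenced, per the labels. The aligners TopHat2 (version 2) and Bowtie (version 1), the counter featureCounts (version 1) and the builds mm10 and GRCm38 are named in the submitters' processing notes. The authors deposited 1 table of 43346 genes with raw read counts and RPKM values, coordinates and a length. The deposited RPKM values imply library totals of which the gene counts make up 80.3% to 82.7%, and were used only for that. The length column holds multiples of 3 for 38.1% of genes, so it covers more than coding sequence.

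Junction genes were taken by the table's names, and lists by GENCODE M21 symbols, which covered 42462 identifiers. The members and lists were chosen with earlier results of these data known. The filter was filterByExpr at a count of 10 and a total of 15, scaling was by TMM, and transgenic was tested against control over 20872 genes with the quasi-likelihood test of edgeR 4.0.16 in R 4.3.3 (legacy setting, no covariate) with Benjamini-Hochberg adjustment. Standard errors are the log2 fold change over the square root of F. CPM uses TMM-scaled library sizes. The code was tested on simulated counts. Every pair of libraries differed beyond sampling noise (chi-square per gene 14.6 or more). Named were all junction genes averaging at least 10 CPM, up to 5 per direction with groups that did not overlap, and the 2 genes per list with the smallest p. Others (among them Cldn1, the catenins and the marker genes) were chosen after their values were seen. A further gene of the set enters the counts and medians but is not reported here. Alternatives were DESeq2 1.42.0, limma-voom (limma 3.58.1), other scalings and filters, 2 covariates and leaving out each library.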

Additional observations from a re-analysis of the deposited data

How the results depend on the processing

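In every alternative run, 0 junction genes passed an adjusted p of 0.05. Over all genes the count of 0 (269 at an unadjusted p under 0.05) became 7 with pan-epithelial scaling, 24 with endothelial scaling, 1 with DESeq2, and 0 to 15 with 1 library left out, while limma-voom gave 0. Without library E, 9 junction genes had an unadjusted p under 0.05, as did 2474 of all 21517 genes tested there. The count of junction genes whose groups did not overlap, 3, became 8 with pan-epithelial scaling, 7 with no filter and 10 to 33 with 1 library left out, where a group of 1 library separates more easily. As shares of the genes tested, these were 8.57% of junction genes against 23.9% of all genes at first, 22.9% against 9.48% with pan-epithelial scaling and 14.6% against 23.8% with no filter. With 1 library left out they were 55.3% against 56.5% (without B), 89.2% against 74.2% (without E), 53.8% against 62.5% (without D) and 26.3% against 54.4% (without F). The median log2 fold change of the junction genes was -0.11 without library B and 0.31 without library E, and the median of all genes shifted to -0.16 with pan-epithelial and 0.28 with endothelial scaling. Under DESeq2 size factors, upper-quartile factors, either filter, either change of the quasi-likelihood setting, DESeq2, limma-voom and a term that sets B and D apart from E and F, the named genes tested kept their direction. That term gave Cldn5 -0.43 (SE 0.13, adjusted p = 0.799 in edgeR).

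Directions turned as follows, on the log2 scale, and the cause was not tested. With pan-epithelial and endothelial scaling, the values include the shift of all genes given above (medians -0.16 and 0.28). With pan-epithelial scaling the values were Cldn18 -0.13, Cldn3 -0.081, Cdh1 -0.013, Epcam -0.073, Cldn7 -0.12, Pkp4 -0.059, Cldn4 -0.024, Ocln -0.15, Dsp -0.014, Cgn -0.14, Tjp3 -0.057, Cldn8 -0.042, Marveld2 -0.10, Cldn12 -0.10, Marveld3 -0.045 and Dsg2 -0.010. With endothelial scaling, added after the data were seen, they were Tjp1 0.21, F11r 0.26, Jup 0.10, Cldn25 0.26 and Ybx3 0.12. With the Y-linked share as covariate they were F11r 0.077, Cldn8 -0.22 and Dsg2 -0.051. Each value listed so far lay within 1 SE of 0. Examples are Cldn18 with pan-epithelial scaling (-0.13, SE 0.47) and Cldn8 with the Y-linked covariate (-0.22, SE 0.36). With 1 library left out, the ranges of genes that turned were Cldn18 -0.36 to 0.49, Cldn3 -0.19 to 0.37, Cdh1 -0.11 to 0.44, Tjp1 -0.21 to 0.069, Jup -0.38 to 0.027, Epcam -0.16 to 0.34, Cldn7 -0.30 to 0.38, Cldn4 -0.32 to 0.59, Ocln -0.16 to 0.22, Crb3 -0.23 to 0.60, Cldn25 -0.061 to 0.010, Dsp -0.086 to 0.39, Cgn -0.26 to 0.31, Tjp3 -0.15 to 0.38, Cldn10 -0.32 to 0.82, Marveld2 -0.11 to 0.26, Cldn12 -0.053 to 0.20, Pkp2 -0.11 to 0.50, Pkp3 -0.17 to 0.51, Marveld3 -0.15 to 0.41, Dsg2 -0.15 to 0.52, Ildr1 -0.0071 to 0.52 and F11r -0.091 to 0.023. Named genes that kept their direction ranged as follows with 1 library left out: Cldn5 -0.79 to -0.092, Pkp4 0.023 to 0.20, Cldn8 0.018 to 0.30, Dsc2 0.10 to 0.83, Cldn11 -0.54 to -0.31, Magi3 0.020 to 0.40, Ybx3 -0.26 to -0.041, Crb1 0.34 to 1.02, Cdh13 -0.58 to -0.19, Cdh2 -0.59 to -0.11, Krt5 2.30 to 3.23, Krt17 0.55 to 2.38, Klf4 -0.52 to -0.26 and Rock1 0.10 to 0.29. The value nearest 0 came without library B for Cldn5, Dsc2, Pkp4, Cldn8, Magi3, Ybx3, Crb1, Cdh2, Klf4 and Rock1, and with pan-epithelial scaling Rock1 was at 0.014 and Magi3 at 0.028. Most turns came without library B (22 genes), 8 without F, 1 without E and 1 without D. With 1 library left in a group, its spread is taken from the other group. The labels give no replicate numbers, and the term for B and D is an axis taken from earlier results of these data, not a pairing from the design. With 2 libraries a group, an exact permutation test could not reach 0.05.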

Other observations

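The makeup of the claudins differed from that of the desmosomal cadherins in breadth: 17 of 25 claudin genes but 2 of 9 desmosomal cadherin genes passed the filter on low counts. The members absent or nearly so include those of stratified epithelium (Pkp1, Dsg1a, Dsg1b, Dsg1c, Dsg3, Dsc1 and Dsc3, with 2 to 38 counts each over the 4 libraries). On the marker list for basal and squamous epithelium the summed level was 11.4 to 12 CPM. An unadjusted p under 0.05 was reached by 2 of 11 genes (background 1.29% of genes), in opposite directions. Of the 11, 4 were higher (background 11.9%), Krt5 among them, and 3 lower (background 12%), Trp63 among them, in both transgenic libraries. Both genes were scarce. Krt5 was at 0.185 CPM (B), 0.305 (E), 0.0248 (D) and 0.047 (F), and Trp63 at 0.0662, 0.113, 0.298 and 0.247 CPM in the same libraries.

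Cldn18 was set against Ager, Epcam and Sftpc, and each of these ratios spanned less than Cldn18 alone, 1.75-fold. Relative to Ager, a marker of alveolar type 1 cells, Cldn18 was 0.817 (B), 0.851 (E), 0.787 (D) and 0.913 (F). Relative to Epcam it was 5.91, 5.07, 6.36 and 5.04, high in B and D. Relative to Sftpc it was 0.0266 (B) and 0.0267 (E) against 0.0312 (D) and 0.0276 (F), lower in each transgenic library, with F closer to B and E than to D. This restates a log2 fold change of 0.06 for Cldn18 beside 0.21 (SE 0.44) for Sftpc. The ratio of Cldn3 to Cdh1 was also lower, at 0.332 (B) and 0.328 (E) against 0.351 (D) and 0.342 (F). For the other ratios taken without Cldn5 the groups overlapped. No share over all pairs of genes was taken. Cldn6, scarce in all libraries, was at 5.67 CPM (B), 2.26 (E), 5.32 (D) and 2.89 (F). It ends 137 bases from Cldn9, which had 33 counts in all.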
